A study of Mus musculus with 4 samples.

Results

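*Thbs1*, *Cd47* and *Sirpa* encode a secreted ligand, its widespread receptor, and the receptor's partner on phagocytes, and they make up 3 of the 55401 genes measured in leukocytes of the mouse dura mater. They were selected by symbol. *Thbs1* was chosen for its high level in these same leukocytes, so its level and rank are given as a description with no test, whereas the difference between treatments did not enter the choice. All mice were WT C57BL/6J males that received 2 μl of an AAV serotype 9 vector into the cisterna magna, the CSF space below the cerebellum, at 4 wk of age. AAV-mVEGF-C encoded the full-length mouse growth factor VEGF-C, and AAV-CTRL encoded immunoglobulin-like domains 4–7 of mouse VEGFR-3 joined to an Ig tail, a soluble receptor piece that does not bind VEGF-C. Viable CD45+ cells were sorted by flow cytometry from dura peeled off the skullcap, and cells of several mice were combined before sorting. The sources used here give differing numbers of mice for the sort of dural cells and none for each library. There were 2 libraries per group, called here by experiment number AAV-CTRL 1 and 2 and AAV-mVEGF-C 1 and 2. Which cells produced the transgene was not measured in these libraries. Since each library is a pool, p-values refer to the spread between 2 pools per group and not between mice.

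Thrombospondin-1, the product of *Thbs1*, is a large trimeric glycoprotein of the extracellular matrix that platelets, macrophages, and stromal cells secrete, and it binds CD36 through its type 1 repeats and CD47 through its C-terminal domain. CD47 is a membrane protein of nearly all cells, red blood cells included, and is best known as a "don't eat me" signal. It engages SIRPα on macrophages, monocytes, neutrophils, and dendritic cells, whose phosphorylated tail recruits the phosphatases SHP-1 and SHP-2 and restrains engulfment.

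The genes are shown here by reference sequence, because the counts can be read as single-gene values only where the transcripts differ from those of their relatives. *Thbs1* (ENSMUSG00000040152.8) lies on the plus strand of chromosome 2, chr2:118111876-118127133 on GRCm38, and its transcript has 22 exons, 5848 bases, and a coding length of 3513 bases. The exon printed here, chr2:118124120-118124259, codes for part of the C-terminal domain, the domain that binds CD47, with 5 coding bases left in the next exon.

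Thbs1 exon: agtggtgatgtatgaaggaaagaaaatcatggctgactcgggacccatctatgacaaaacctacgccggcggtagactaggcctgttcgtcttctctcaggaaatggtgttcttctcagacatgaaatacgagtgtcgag

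*Cd47* (ENSMUSG00000055447.19, chr16:49800533-49915010, plus strand) has a longest coding transcript of 10 exons and 5250 bases, and *Sirpa* (ENSMUSG00000037902.18, chr2:129592835-129632228, plus strand) has one of 8 exons and 3982 bases. In each of the 3 transcripts, 0 windows of 100 bases, the length of the reads, occurred in a transcript of another gene. The nearest relatives of *Sirpa*, the *Sirpb1* genes on chromosome 3, encode receptors with a similar outer part but no inhibitory tail. The most similar coding window of 100 bases differed from *Sirpb1a* at 9 positions (12 for *Sirpb1b* and *Sirpb1c*). It is printed from both genes, with the differing bases in capitals, to show how many bases tell a read of the most alike stretch apart. The positions are chr2:129609113-129609212 on the plus strand for *Sirpa* and chr3:15416885-15416984 on the minus strand for *Sirpb1a*, within 1 exon each.

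Sirpa: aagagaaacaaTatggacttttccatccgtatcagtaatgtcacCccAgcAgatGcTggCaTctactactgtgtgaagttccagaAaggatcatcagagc

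Sirpb1a: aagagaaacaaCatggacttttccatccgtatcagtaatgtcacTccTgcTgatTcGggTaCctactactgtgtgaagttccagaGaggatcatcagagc

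Among themselves the *Sirpb1* genes were much closer, sharing 25.4% of such windows with another gene in *Sirpb1a*, 50.2% in *Sirpb1b*, and 37.0% in *Sirpb1c*, so the split of reads between these 3 genes is uncertain. A long noncoding gene, *Gm29233*, overlaps *Thbs1* on the opposite strand. It held 3 reads in AAV-CTRL 2 and 0 in each of the other 3 libraries.

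Reads assigned to genes numbered 32520709 to 46409700 per library. AAV-CTRL 1 had the most reads and the fewest genes with a read, 20990 against 29221 to 37512, and it stood apart from the other libraries across genes (Pearson's r of 0.967 to 0.973 on log2[CPM + 1], against a highest r of 0.988), which makes results that depend on it less firm. Protein-coding nuclear genes took 73.7% to 75.7% of the reads but only 27.8% to 36.0% of the TPM (transcripts per 1000000, reads scaled for transcript length to a fixed total). The short noncoding RNA *Rn7s1*, the 7SL RNA of the signal recognition particle, alone held 24.8% to 29.4% of the TPM. Levels are therefore given as deposited TPM and also as TPM rescaled to the protein-coding nuclear genes, a scale chosen after seeing the data. This set holds genes whose identifiers, version included, are protein-coding in the GENCODE M21 annotation. It is incomplete, since the protein-coding genes *Junb*, *Ier2*, *Itga6*, and *Xcr1*, listed here, fall outside it. Shares, ranks, and values on that scale are therefore approximate. Differences between groups are given in CPM (counts per 1000000 reads, adjusted between libraries with the TMM factors of edgeR).

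*Thbs1* was among the most abundant messenger RNAs of the sorted cells. Its estimated reads were 78151 and 55687 in the control libraries 1 and 2, and 76641 and 79933 in the treated libraries 1 and 2. These were 0.168% of the reads of AAV-CTRL 1 (95% Wilson interval 0.167% to 0.170%), 0.167% of AAV-CTRL 2 (0.166% to 0.168%), 0.201% of AAV-mVEGF-C 1 (0.200% to 0.203%), and 0.246% of AAV-mVEGF-C 2 (0.244% to 0.247%). The intervals, which cover counting error only, overlapped between the control libraries and not between the treated ones.

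In deposited TPM, the level of *Thbs1* was 209.9 and 212.4 in the AAV-CTRL libraries and 232.6 and 287.9 in the AAV-mVEGF-C libraries. Rescaled to the protein-coding nuclear genes, it was 583 and 649 in AAV-CTRL and 838 and 940 in AAV-mVEGF-C. On either scale both AAV-mVEGF-C libraries lay above both AAV-CTRL libraries. By mean TPM, *Thbs1* ranked 311 among all 55401 genes, between *Eif1*, a translation initiation factor (235.81), and *H3c13*, a histone H3 gene (235.61), with *Thbs1* itself at 235.68. Those neighbours did not differ from it beyond its spread. Among the 21195 protein-coding nuclear genes with a rescaled value, its rank was 168. Its neighbours there were *Elane*, the elastase of immature neutrophils, and *Arpc1b*, a subunit of the actin-nucleating Arp2/3 complex. *Junb*, outside this set, had 429 to 557 TPM, more than *Thbs1*, so the rank is approximate. Within libraries that rank was 238 and 196 in AAV-CTRL and 143 and 135 in AAV-mVEGF-C.

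**Figure D1:**
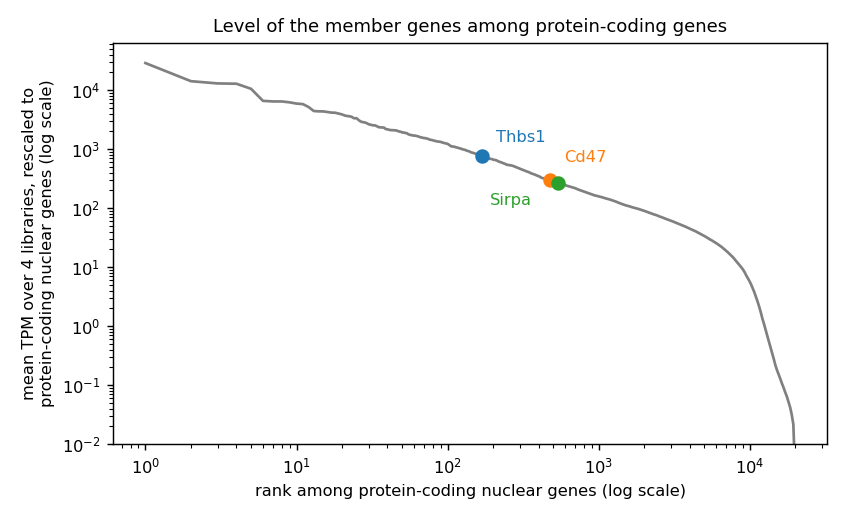
Mean TPM over the 4 libraries, rescaled to protein-coding nuclear genes, against rank among these genes, both on log scales. The line is all ranked genes and the points are the members: *Thbs1* at rank 168, *Cd47* at 476, and *Sirpa* at 538.

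*Ptprc*, which encodes CD45 itself, gave a yardstick for the level of *Thbs1* in a CD45 sort. *Ptprc* had 214.89 and 210.74 TPM in AAV-CTRL and 199.97 and 190.99 TPM in AAV-mVEGF-C, with a log2 fold change in CPM of 0.02 ± 0.18 (SE). The TPM ratio of *Thbs1* to *Ptprc* was 0.977 and 1.01 in AAV-CTRL and 1.16 and 1.51 in AAV-mVEGF-C, so the secreted ligand's transcript was about as abundant as that of the sorted surface protein in the control pools and above it in both treated pools.

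The question the study put to these libraries was how dural immune cells responded to VEGF-C. The CPM of *Thbs1* was 1748 and 1619 in AAV-CTRL 1 and 2 (mean 1684 ± 91.1, SD, n = 2) and 1962 and 2522 in AAV-mVEGF-C 1 and 2 (2242 ± 396, SD, n = 2). Both treated libraries were higher than both controls, but AAV-mVEGF-C 1 was closer to the controls than to its own replicate. The log2 fold change was 0.41 ± 0.19 (SE), with an unadjusted p of 0.0706 and an adjusted p of 0.999 in the quasi-likelihood test of edgeR with Benjamini-Hochberg adjustment. The adjusted p was 0.366 at the lowest over the alternatives, so the difference did not pass the test. Without AAV-mVEGF-C 2 the log2 difference was 0.23, and without AAV-mVEGF-C 1 it was 0.59. Leaving out AAV-CTRL 1, the control that stood apart, gave 0.45.

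As background, edgeR called 0 of 19806 tested genes (0%) at an adjusted p under 0.05, and DESeq2 called 72. At an unadjusted p under 0.05, edgeR called 523 genes (2.64%). Both AAV-mVEGF-C libraries lay above both AAV-CTRL libraries in 16.8% of the tested genes and below both in 15.2%. Of the 3 members, *Thbs1* was the 1 gene whose groups did not overlap in CPM. A smaller unadjusted p than its own was found for 3.98% of the tested genes. In bulk RNA of sorted cells, fewer cells of a type and less RNA per cell cannot be told apart.

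**Figure D2:**
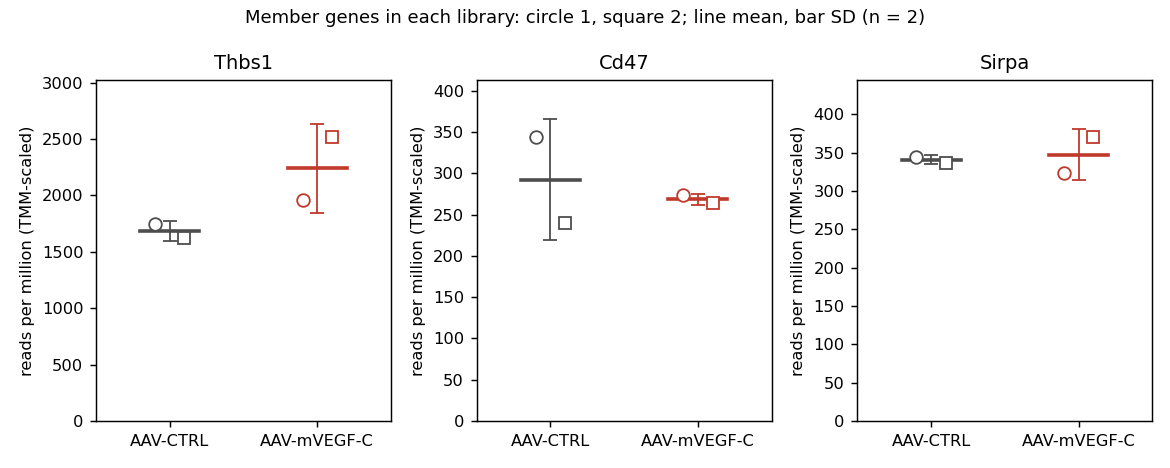
CPM (TMM-scaled) of each member in each library, on axes starting at 0, with circles for library 1, squares for library 2, a line for the group mean, and a bar for its SD (n = 2). *Thbs1* ran from 1619 to 1748 in AAV-CTRL and from 1962 to 2522 in AAV-mVEGF-C, whereas the groups overlapped for *Cd47* and *Sirpa*.

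*Cd47*, the receptor, was expressed below its ligand and did not separate the groups in CPM. Its CPM was 345 and 240 in the control libraries 1 and 2, and 273 and 264 in the treated ones. AAV-CTRL 1 was the highest, AAV-CTRL 2 the lowest, and both treated libraries lay between them. The log2 fold change was −0.12 ± 0.21 (SE; adjusted p = 0.999, edgeR). Its direction depended on 1 control library, since the value was 0.14 without AAV-CTRL 1 and −0.35 without AAV-CTRL 2. In deposited TPM the level was 119.7 and 93.3 in AAV-CTRL against 80.5 and 86.8 in AAV-mVEGF-C, which do not overlap. On the rescaled TPM the levels were 333 and 285 against 290 and 284, which do. *Cd47* ranked 476 among the protein-coding nuclear genes by mean TPM, within 406 to 503 in single libraries.

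Red blood cells carry CD47, and transcripts of the erythroid list were lower in the treated pools. The summed level of the 6 erythroid genes was 122 and 156 CPM in AAV-CTRL and 29.2 and 53.2 CPM in AAV-mVEGF-C, and 5 of the 6 had an unadjusted p under 0.05, each in the lower direction. *Hba-a2*, an alpha globin, had a log2 fold change of −2.05 ± 0.35 (SE; unadjusted p = 0.000972, adjusted p = 0.687, edgeR), and it passed in DESeq2 (adjusted p = 7.42e-06). The part of these cells in the level of *Cd47* was not tested.

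*Sirpa*, the phagocyte receptor of CD47, lay just below *Cd47* in TPM and did not separate the groups in CPM. Control libraries 1 and 2 had 345 and 337 CPM of it, and treated libraries 1 and 2 had 324 and 371 CPM. The lowest and the highest library were both treated, on either side of the controls. The log2 fold change was 0.03 ± 0.16 (SE; adjusted p = 0.999, edgeR), and −0.067 without AAV-mVEGF-C 2. In deposited TPM it took the opposite sign, −0.15 ± 0.17 (SE) on log2(TPM + 1). The levels were 88.2 and 89.8 TPM in AAV-CTRL against 74.6 and 85.5 TPM in AAV-mVEGF-C, which do not overlap. On the rescaled TPM the groups overlapped and the log2 difference was 0.08 ± 0.17 (SE). Over all tested genes, the median log2 fold change was 0.00 in CPM and −0.08 on log2(TPM + 1). The rank of *Sirpa* among the protein-coding nuclear genes was 512 to 582 in single libraries, below every rank of *Cd47* (406 to 503).

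Ratios of TPM within a library do not depend on how libraries are scaled against each other. The ratio of *Thbs1* to *Cd47* was 1.75 and 2.28 in control libraries 1 and 2, and 2.89 and 3.31 in treated libraries 1 and 2. Ligand transcripts thus outnumbered receptor transcripts in every library, more so in both treated pools than in both controls. The mean log2 ratio was 0.999 ± 0.267 in AAV-CTRL and 1.63 ± 0.140 in AAV-mVEGF-C (SD, n = 2), a difference of 0.63 or 1.55-fold. The exact two-sided permutation test gave p = 0.333, which is the smallest it can give with 2 libraries against 2, so this design cannot reach 0.05. Without AAV-CTRL 1 the difference was 0.44.

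The ratio of *Sirpa* to *Cd47* was 0.736 and 0.963 in control libraries 1 and 2, and 0.927 and 0.984 in treated libraries 1 and 2. Only AAV-CTRL 1 lay apart, and the groups overlapped, with a log2 difference of 0.18 (exact permutation p = 0.667) that became −0.012 without that library. A further ratio, added after seeing the data, was that of *Thbs1* to *Sirpa*, at 2.38 and 2.36 in AAV-CTRL and 3.12 and 3.37 in AAV-mVEGF-C. The control libraries nearly coincided in it, and both treated libraries were above them (log2 difference 0.45, exact permutation p = 0.333). Adjusted over the 4 ratios, including that to *Ptprc*, these p-values were 0.444 for the 3 ratios of *Thbs1* and 0.667 for *Sirpa* to *Cd47*, with exact permutation tests throughout.

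**Figure D3:**
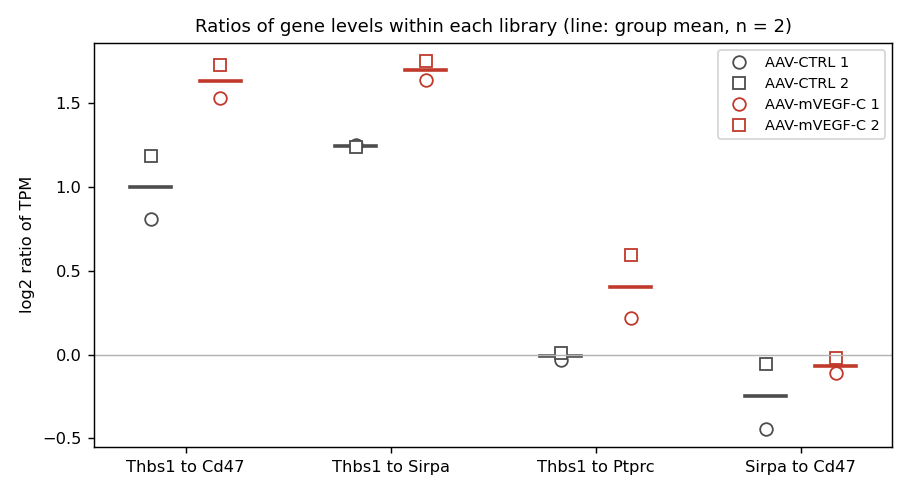
The log2 ratio of TPM between gene pairs in each library, with circles for library 1, squares for library 2, and a line for the group mean (n = 2). The treated libraries lie above the controls in the 3 ratios with *Thbs1*, and the groups overlap for *Sirpa* to *Cd47*.

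The wider pathway was read from a list of 36 genes, all of which were tested. Of these, 0 passed an adjusted p under 0.05 in edgeR and 1 had an unadjusted p under 0.05, *Comp*, which was lower. Log2 fold changes were above 0 in 17 genes and below 0 in 19, with a median of −0.01, against a median of 0.00 over all tested genes. Both AAV-mVEGF-C libraries lay above both controls in 4 of the 36 and below both in 8, beside 16.8% and 15.2% of all tested genes. On log2(TPM + 1) the split was 9 above and 27 below 0. On the TPM rescaled to protein-coding nuclear genes it was 22 above and 13 below for the 35 genes on that scale, so the split rests on the scaling.

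Among the thrombospondins, *Thbs1* was the dominant gene in level. *Thbs2*, a relative that fibroblasts secrete, had 3.71, 8.73, 2.29, and 4.19 TPM in AAV-CTRL 1 and 2 and AAV-mVEGF-C 1 and 2, and its log2 fold change was −0.81 ± 0.43 (SE). *Thbs3* had 0.721 to 1.97 TPM and *Thbs4* 0.0900 to 0.297 TPM. *Comp*, the fifth thrombospondin and a matrix protein of cartilage and tendon, had 10.7 and 15.4 CPM in AAV-CTRL and 5.86 and 6.15 CPM in AAV-mVEGF-C, without overlap (log2 fold change −1.12 ± 0.29 SE, unadjusted p = 0.00807, adjusted p = 0.999, edgeR). *Thbs1* was thus the 1 member of its family with a log2 fold change above 0, and the other 4 were below. Whether its change differed from theirs was not tested.

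Of the 7 genes of the fibroblast list, 7 had a log2 fold change below 0 and 4 an unadjusted p under 0.05. The median over these genes was −0.92, but −0.47 without AAV-CTRL 2, where 1 was above 0 and 6 below. Their sum was 669 and 1074 CPM in AAV-CTRL and 367 and 569 CPM in AAV-mVEGF-C, highest in AAV-CTRL 2 and lowest in AAV-mVEGF-C 1, as *Thbs2* was. *Col1a1*, a chain of type I collagen, had 302 and 468 CPM in AAV-CTRL and 158 and 234 CPM in AAV-mVEGF-C. The part of fibroblast RNA in *Thbs1*, *Thbs2*, and *Comp* was not tested.

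The receptors of thrombospondin-1 varied widely in level. *Calr*, the chaperone calreticulin, which at the cell surface serves as a thrombospondin receptor and an "eat me" signal, had 292 to 377 TPM. *Itgb1*, the integrin β1 chain, had 67.5 to 85.0 TPM, with overlapping groups. *Lrp1*, the endocytic receptor that pairs with calreticulin, had 53.7 and 56.4 TPM in AAV-CTRL and 38.2 and 35.4 TPM in AAV-mVEGF-C. Those groups did not overlap in TPM or in rescaled TPM, with a difference of −0.57 ± 0.16 (SE; unadjusted p = 0.0142, adjusted p = 0.837, limma) on log2(TPM + 1), but they overlapped in CPM, where the log2 fold change was −0.12 ± 0.18 (SE). *Itgav* and *Itgb3*, which pair as the vitronectin receptor, had 14.0 to 18.3 and 8.98 to 11.3 TPM. *Cd36*, the scavenger receptor for the type 1 repeats, had 41.5 and 51.8 CPM in AAV-CTRL and 26.7 and 37.9 CPM in AAV-mVEGF-C. Its groups did not overlap in CPM, and its log2 fold change was −0.53 ± 0.23 (SE; unadjusted p = 0.0625, adjusted p = 0.999, edgeR). In TPM its groups overlapped, and the log2 difference was −0.31 ± 0.40 (SE) on log2(TPM + 1) and −0.09 ± 0.37 on the rescaled TPM. *Itga3*, a laminin-binding integrin chain, lay in the other direction at a low level, 2.93 and 5.44 CPM against 6.66 and 6.63 CPM (log2 fold change 0.67 ± 0.40 SE). Of the 9 receptor genes, 7 had a log2 fold change below 0 in CPM (4 of the 8 on the rescaled TPM), and none passed the test. Without AAV-CTRL 1, 5 of the 9 were above 0 and 4 below.

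In the SIRP family, *Sirpa* was the most abundant gene. *Sirpb1a*, *Sirpb1b*, and *Sirpb1c*, which signal through the activating adaptor DAP12, had 6.45 to 8.06, 5.10 to 8.75, and 10.5 to 16.0 TPM. Their log2 fold changes were 0.25 ± 0.22, 0.07 ± 0.29, and −0.05 ± 0.29 (SE), with the split of reads between them uncertain.

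The machinery on either side of the receptor pair was present in every library. *Ptpn6* (SHP-1), the main phosphatase on the SIRPα tail in leukocytes, had 340 and 330 CPM in AAV-CTRL and 273 and 308 CPM in AAV-mVEGF-C. It was lower in both treated libraries, with a log2 fold change of −0.21 ± 0.16 (SE). On the rescaled TPM its groups overlapped, at 454 and 407 in AAV-CTRL against 427 and 376 in AAV-mVEGF-C. *Ptpn11* (SHP-2) had 139, 118, 121, and 138 CPM in the same order of libraries, with overlapping groups. *Tyrobp*, which encodes DAP12, had 220 to 294 TPM and *Myh9*, the myosin heavy chain that drives engulfment and is held back by SIRPα, 482 to 569 TPM. *Fyb* and *Skap2*, adaptors that bind the SIRPα tail, had log2 fold changes of 0.00 ± 0.15 and −0.04 ± 0.19 (SE). *Qpctl*, the enzyme that modifies the CD47 N terminus for SIRPα binding, was low, at 2.58 to 2.81 TPM, and its log2 fold change was 0.15 ± 0.25 (SE). *Ptk2b*, the kinase Pyk2, had 238 and 224 CPM in AAV-CTRL against 240 and 260 CPM in the treated libraries, a log2 fold change of 0.11 ± 0.15 (SE). Of these 8 genes, 0 passed the test at an adjusted or an unadjusted p under 0.05.

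Thrombospondin-1 also activates latent TGF-β. *Tgfb1*, the isoform of leukocytes, had 188, 253, 203, and 240 CPM in AAV-CTRL 1 and 2 and AAV-mVEGF-C 1 and 2, with overlapping groups and a log2 fold change of 0.01 ± 0.20 (SE). *Tgfb2*, *Tgfb3*, and the latency protein gene *Ltbp1* were at or below 2.80 TPM. Among other ligands and receptors that restrain phagocytes, *Cd24a*, the ligand of Siglec-G, had 363 and 247 CPM in AAV-CTRL and 225 and 231 CPM in AAV-mVEGF-C. Both treated libraries were below both controls, with AAV-CTRL 1 far above the rest (log2 fold change −0.42 ± 0.22 SE, adjusted p = 0.999, edgeR, and −0.19 ± 0.18 SE on the rescaled TPM). *B2m*, the light chain of MHC class I, had 926 to 1165 TPM and a log2 fold change of 0.02 ± 0.17 (SE), and *Pirb*, an inhibitory receptor for MHC class I, had 0.02 ± 0.26 (SE).

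**Figure D4:**
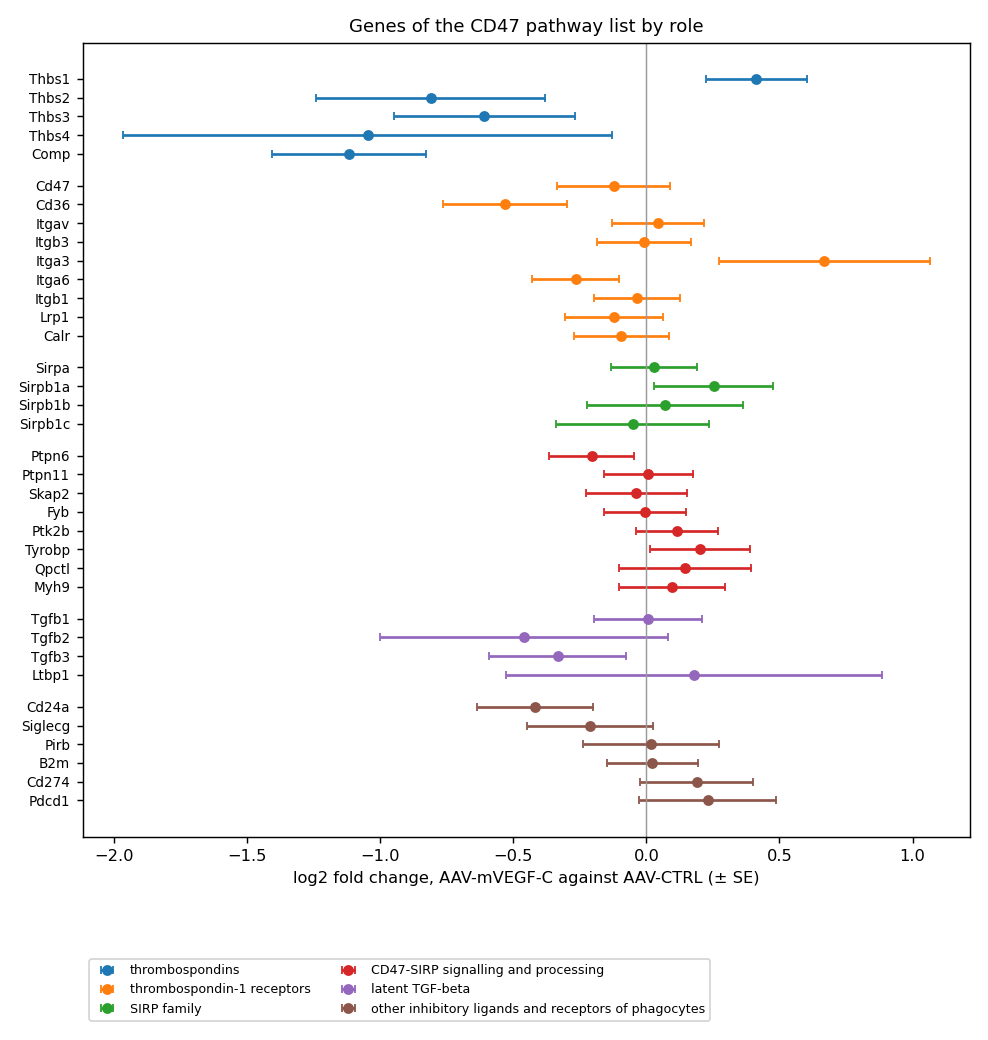
Log2 fold change of AAV-mVEGF-C against AAV-CTRL with its SE for the 36 pathway genes, coloured by role. *Comp* has the lowest value, −1.12, and *Thbs1*, at 0.41, is the 1 thrombospondin above 0.

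The genes whose profile over the 4 libraries was most like that of *Thbs1* were taken from 186 tested genes with named symbols and a mean log2 CPM within 2 of its own, by the root mean square difference of centred log2 CPM. They were *Tnfaip3* (0.08), which encodes the NF-κB inhibitor A20, *Sik1* (0.12), a salt-inducible kinase, *Fosl2* (0.13), an AP-1 subunit, *Tmsb4x* (0.14), which encodes an actin-binding thymosin, and *Nfkbia* (0.14), which encodes the NF-κB inhibitor IκBα. *Tnfaip3* had 1459 and 1459 CPM in AAV-CTRL and 1680 and 1935 CPM in AAV-mVEGF-C, and *Fosl2* had 1004 and 1152 against 1389 and 1631 CPM. Each of the 5 was highest in AAV-mVEGF-C 2, as *Thbs1* was. The likeness covers 4 libraries and includes the treatment difference of each gene.

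Of 14 immediate early and stress genes, which cells induce within minutes of stimulation or handling, 13 had a log2 fold change above 0 in CPM, with a median of 0.15 and none past an unadjusted p under 0.05, beside 9983 of all 19806 tested genes above 0. On log2(TPM + 1), where the median over all genes was −0.08, 6 of the 14 were above 0 and the median was −0.02, whereas on the rescaled TPM 11 of 12 were above 0, with a median of 0.21. Without AAV-CTRL 1 the count in CPM was 5 of 14, and without AAV-mVEGF-C 2 it was 6 of 14, so the split rests on single libraries as well as on the scaling. Their sum was 9726 and 13292 CPM in AAV-CTRL and 11180 and 14399 CPM in AAV-mVEGF-C. *Hspa1a*, the inducible heat shock protein gene, had 138, 349, 144, and 621 CPM in AAV-CTRL 1 and 2 and AAV-mVEGF-C 1 and 2. The part of such induction in *Thbs1* was not tested.

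Platelets carry much thrombospondin-1, and their marker list was read beside it. Of the 12 genes of the platelet and megakaryocyte list, 9 had enough reads to be tested, and 0 of them had an unadjusted p under 0.05. The sum of the list was 53.9 and 66.4 CPM in AAV-CTRL and 39.4 and 51.2 CPM in AAV-mVEGF-C and included 19.2 to 46.03 CPM of *Pf4*, a chemokine gene that macrophages also express. *Itga2b* was at 9.62 to 16.8 CPM, *Gp1ba* at 2.21 to 4.70 CPM, *Ppbp* at 0.284 to 1.14 CPM, and *Gp9* at 0.0768 to 0.380 CPM. Of the 9 tested genes, 7 had a log2 fold change below 0 and 2 above. *Clec1b*, at a low level, was higher in both treated libraries (0.201 and 0.523 CPM in AAV-CTRL against 1.05 and 0.852 CPM in AAV-mVEGF-C). The part of platelets in the level of *Thbs1* was not tested.

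The sums of the monocyte, neutrophil, and macrophage lists overlapped between the groups. The monocyte list summed to 3323 and 2119 CPM in AAV-CTRL and 2577 and 2485 CPM in AAV-mVEGF-C, and the neutrophil list to 26350 and 12235 against 15591 and 17656 CPM. The macrophage list summed to 3913 and 5913 CPM in AAV-CTRL and 3139 and 4746 CPM in AAV-mVEGF-C, and 11 of its 11 genes had a log2 fold change below 0 in CPM (8 of 11 on the rescaled TPM), with none past an unadjusted p under 0.05. That direction rested on single libraries: without AAV-CTRL 2, 10 of the 11 were above 0, and without AAV-mVEGF-C 1, 5 were above and 6 below. Of the 10 neutrophil markers, 7 were above 0 and 3 below in CPM, with a median log2 fold change of 0.04; without AAV-CTRL 1, 10 were above 0, and without AAV-CTRL 2, 8 were below. *Csf3r*, the G-CSF receptor of neutrophils, had 209 and 162 CPM in AAV-CTRL and 244 and 281 CPM in the treated libraries (log2 fold change 0.50 ± 0.19 SE, unadjusted p = 0.0388, adjusted p = 0.999, edgeR). It was the 1 gene of that list past the unadjusted level of 0.05. For dendritic cells, 4 of 7 genes were above both controls in both treated libraries, beside 16.8% of all tested genes. Of the 7, 6 had a log2 fold change above 0, and *Siglech* was below (−0.31 ± 0.34 SE). The list summed to 283 and 349 CPM against 346 and 363 CPM, so the groups overlapped. T and NK cell genes summed to 248 and 227 CPM in AAV-CTRL and 285 and 280 CPM in AAV-mVEGF-C, with 2 of 8 higher at an unadjusted p under 0.05. In CPM, 6 of the 8 were above 0 and 2 below, and *Ncr1*, an NK cell gene, was lower in both treated libraries. The split was 7 above and 1 below without AAV-CTRL 1. It was 4 above and 4 below without AAV-CTRL 2, and also on log2(TPM + 1). The mast cell list was lower, at 2075 and 1469 against 1193 and 1269 CPM, with 4 of 5 genes at an unadjusted p under 0.05. Its median log2 fold change was −0.62, but −0.30 without AAV-CTRL 1, where 1 gene was above 0 and 4 below. B cell genes summed to 273 and 648 against 285 and 315 CPM, and endothelial genes to 82.5 and 111 against 74.4 and 72.6 CPM, each with 1 gene lower at an unadjusted p under 0.05. In CPM, 6 of 6 B cell genes were below 0, but without AAV-CTRL 2, 5 were above and 1 below. Of the 7 endothelial genes, 2 were above 0 and 5 below, with a median of −0.52. Without AAV-CTRL 2 that split was 3 above and 4 below, with a median of −0.04. The part of any of these cell types in the level of *Thbs1* was not tested.

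**Figure D5:**
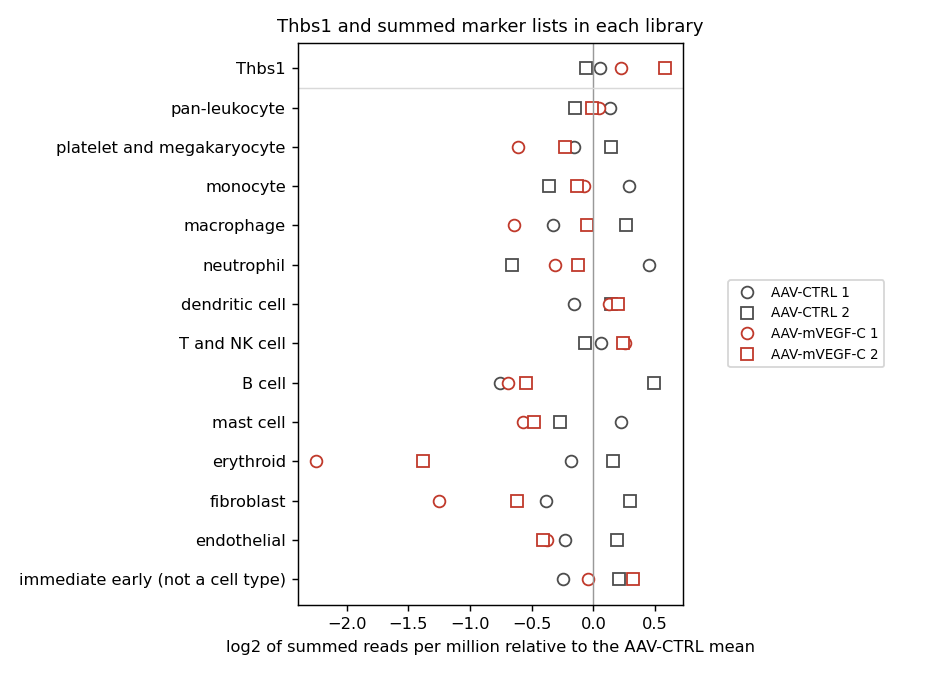
Log2 of the summed CPM of each marker list, and of *Thbs1*, relative to the AAV-CTRL mean, in each library, with circles for library 1 and squares for library 2. *Thbs1* and the T and NK cell list lie above the controls in both treated libraries, and the erythroid, mast cell, fibroblast, endothelial, and platelet lists lie below.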

How the data were processed

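Sorted dural CD45+ cells were sequenced as 4 libraries, 2 per group. The authors deposited estimated counts of reads for each gene, not normalized, of which 8.18% had decimals, and TPM values of the same genes that sum to 1000000 per library. Stranded total RNA libraries for picogram inputs were read as pairs of 100 bases. The submitters' processing notes name FastQC, Trimmomatic, DRAGEN, Picard, and mm10, without versions or roles, and whether counting used strand is not given in the sources used here.

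Counts were rounded and tested with the quasi-likelihood test of edgeR 4.0.16 (R 4.3.3), with TMM scaling, filterByExpr (19806 of 55401 genes), no covariate, and Benjamini-Hochberg adjustment over all tested genes. The common dispersion was 0.173. The standard error is the log2 fold change divided by the square root of F. Ratios were tested by exact permutation, two-sided. Alternatives were DESeq2 1.42.0, the tool named by the study, limma-voom and limma on log2 TPM (limma 3.58.1, pseudocounts of 1 and 0.1), RLE scaling, no filter, a replicate block, and each library left out. Crossed replicate numbers, protein-coding genes only, and rescaled TPM were chosen after seeing the data. Shares of reads have 95% Wilson intervals.

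Members, gene lists, and the rule for named genes (members, pathway genes, the 5 genes most like *Thbs1*, and its neighbours in rank) were chosen with earlier results of these data known. Marker genes named as examples, *Rn7s1*, and *Gm29233* were picked after their values were seen. Annotation and sequences are GENCODE M21 on GRCm38, in which 54349 identifiers occur. Same-numbered libraries deviated from their group means with a correlation of −0.13. The edgeR script was tested on simulated data. One further erythroid marker is not reported here and enters no count.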

Additional observations from a re-analysis of the deposited data

How the results depend on the processing

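*Thbs1* stayed above 0 under all 14 alternatives, at 0.29 to 0.53 on the log2 scale and 0.23 to 0.59 with a library left out, and its adjusted p stayed over 0.05. Its unadjusted p was under 0.05 in 5 of the 10 alternatives that keep every library. DESeq2 (0.0302) and limma-voom (0.0446) were the planned ones among these. The rest, crossed replicate numbers, protein-coding genes only, and rescaled TPM, were chosen after seeing the data. *Cd47* was −0.34 to −0.09, and −0.35 to 0.14 with a library left out, turning to 0.14 without AAV-CTRL 1. *Sirpa* turned to −0.15 and −0.16 on TPM with pseudocounts of 1 and 0.1 and ranged from −0.067 (without AAV-mVEGF-C 2) to 0.13 with a library left out. The log2 ratio difference of *Thbs1* to *Cd47* was 0.50 from reads and 0.44 to 0.82 with a library left out, and that of *Sirpa* to *Cd47* 0.12 and −0.012 (without AAV-CTRL 1) to 0.38. Genes with an adjusted p under 0.05 numbered 72 in DESeq2, 268 of 40674 without the filter, and 2 to 2058 with a library left out (2058 without AAV-CTRL 2, 412 without AAV-CTRL 1, 65 without AAV-mVEGF-C 2, and 2 without AAV-mVEGF-C 1), when the lone sample of a group is assumed to vary like the other group. Pathway genes past it numbered 1 without the filter (*Thbs2*, lower) and 0 to 2 with a library left out: *Thbs2* and *Comp*, both lower, without AAV-CTRL 1 and *Cd24a*, lower, without AAV-CTRL 2. The cause was not tested.

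The labels number the libraries by experiment, and the column names number them differently, so the pairing is not settled. With the replicate block, 11 genes passed the adjusted threshold and *Thbs1* was at 0.40 (unadjusted p = 0.0883, edgeR), *Cd47* at −0.10, and *Sirpa* at 0.02. With the numbers crossed between groups, chosen after seeing the data, 54 genes passed. Member calls did not change. The limits set by depth and by the number of pools were not compared.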
